A study of Mus musculus with 6 samples.

Results

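The 37 genes described here encode integrins and the proteins that couple them to actin, and were taken by symbol from a fixed list, without regard to measured values. All 37 of the 37 had a row among the 19739 genes of the table. Of these, 12 are integrin subunits and 25 are adaptors, kinases and actin-binding proteins of focal adhesions. RNA was measured in primary luminal cells of wild-type mice, which form the inner epithelium of the mammary duct and had been purified by flow cytometry before culture. Their DMEM/F12 medium was supplemented with FBS (5%), the growth factors EGF (10 ng/ml) and FGF2 (20 ng/ml), heparin (4 µg/ml) and Y-27632 (5 µM), which inhibits the kinase ROCK. ROCK drives actomyosin contraction, on which large focal adhesions depend, and the growth medium was common to both groups. Serum was withdrawn 12 hours before treatment, which lasted 24 hours without serum: 3 control libraries received EFNA3 at 0 µg/ml and 3 EFNA3 libraries at 1 µg/ml. The age of the mice is not given in the labels. EFNA3 is ephrin-A3, a ligand of Eph receptors that cells normally carry on their membrane. The comparison asks how this protein affects gene expression in luminal cells.

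Integrins are pairs of an alpha and a beta chain that span the membrane and bind laminin, collagen, fibronectin or other matrix proteins outside the cell. Inside, talin and kindlin bind the beta tail, and vinculin, paxillin, the ILK complex, zyxin and actin crosslinkers join the site to actin filaments, while focal adhesion kinase and Src signal from it. In the mammary gland, the laminin receptors built on Itga6, Itga3, Itgb1 and Itgb4 hold epithelial cells to the basement membrane, and Itga6 with Itgb4 forms the core of hemidesmosomes, which anchor keratin filaments.

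Values are the authors' log2 expression, brought to 1 common distribution over the 6 libraries, so a level is relative to the other genes of its library and depth is unknown. Of the listed genes, 4 (Itgb1, Actn4, Flna and Parva) had exactly the same value in 2 or more libraries, as happens where a gene keeps its rank. EFNA3 replicate 1 stood apart from the other libraries. Its mean correlation with the others was 0.983, against 0.988 to 0.991, and its deviation from the mean of the 6 libraries fell with transcript length (Spearman rho -0.53 across 15972 genes, which are not independent replicates). In the other libraries that rho lay between 0.04 and 0.36. Differences between the groups are therefore given with and without EFNA3 replicate 1, except where a range over several genes stands for them.

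The luminal label was checked against markers, in log2 values as deposited, which take no account of transcript length. All 14 luminal markers were tested, with the luminal keratin Krt8 at 13.70 ± 0.06 in controls (log2, SD, n = 3). Control means of that list ran from 4.70 ± 0.11 (Cited1) to 14.57 ± 0.05 (Epcam). After Cited1 the lowest were Pgr at 9.73 ± 0.02, Esr1 at 9.82 ± 0.11 and Foxa1 at 9.84 ± 0.06. Of the basal keratins, Krt14 at 16.26 ± 0.08 and Krt5 at 14.915 ± 0.023 stood above Krt8, and Krt17 at 10.09 ± 0.06 stood below it. The basal transcription factor gene Trp63 stood at 11.79 ± 0.05 and the oxytocin receptor gene Oxtr at 13.44 ± 0.03. Of the contractile genes of the same list, Mylk stood at 9.38 ± 0.10 and Acta2 at 7.77 ± 0.11, while Myh11 and Cnn1 were lowest at 2.65 ± 0.87 and 2.68 ± 0.36. The log2 of the summed level of the luminal list ran from 16.70 to 16.76 in controls and from 16.76 to 16.94 with EFNA3. For the basal list of 10 genes the corresponding ranges were 16.91 to 17.00 and 17.00 to 17.06. The basal sum thus lay above the luminal sum in every library, so these markers do not show a purely luminal identity. Far below these sums stood 7 of 8 fibroblast markers (10.97 to 11.03 in controls, 10.84 to 10.99 with EFNA3) and 6 of 7 adipocyte markers (10.87 to 11.10 and 10.60 to 10.91), and lower still 6 of 7 endothelial and pericyte markers (8.79 to 8.97 and 8.89 to 8.99) and 4 of 7 immune markers (7.35 to 7.74 and 7.43 to 7.90). The other markers of these lists, among them Ptprc, were not analysed here, and the part of any of these cells in the results was not tested. In bulk RNA, fewer cells of a type and less RNA per cell cannot be told apart.

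In the controls the integrin repertoire was led by the laminin-binding chains Itgb1 and Itga6. Levels of different genes were compared per kb of the longest annotated protein-coding transcript, as log2 of the linear value per kb. On this scale Itgb1, the beta chain shared by most matrix receptors, stood at 12.54 ± 0.04 (SD, n = 3) and Itga6 at 12.11 ± 0.07. Next came the hemidesmosomal chain Itgb4 at 10.69 ± 0.08 and Itgb5, a partner of Itgav in a vitronectin receptor, at 10.41 ± 0.05. Itgb8, which with Itgav activates latent TGF-beta, stood at 9.75 ± 0.06, Itgav at 9.60 ± 0.02 and Itga3, the alpha chain of another laminin receptor, at 9.32 ± 0.01. A gap of 1.98 separated these from Itga2, a collagen receptor chain, at 7.35 ± 0.14 and Itga5, the fibronectin receptor chain, at 7.02 ± 0.12. Itgb6, the epithelial partner of Itgav, followed at 6.13 ± 0.11. Itga9 at 2.07 ± 0.25 and the collagen receptor chain Itga1 at 2.01 ± 0.06 closed the order, and these were the only neighbours whose difference lay within their spread.

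The order was nearly the same in each library. Ranks of the first 10 subunits were identical in the 3 controls and in EFNA3 replicate 3. In EFNA3 replicates 1 and 2 Itgav stood above Itgb8, and in EFNA3 replicate 1 Itgb5 also stood above Itgb4 and Itga5 above Itga2. The measure of length mattered most for Itgb8, whose transcript of 8403 nt is largely untranslated: per kb of coding sequence it ranked 3, ahead of Itgb4. Itgb1 and Itga6 held ranks 1 and 2 as deposited, per kb of transcript and per kb of coding sequence.

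**Figure D1:**
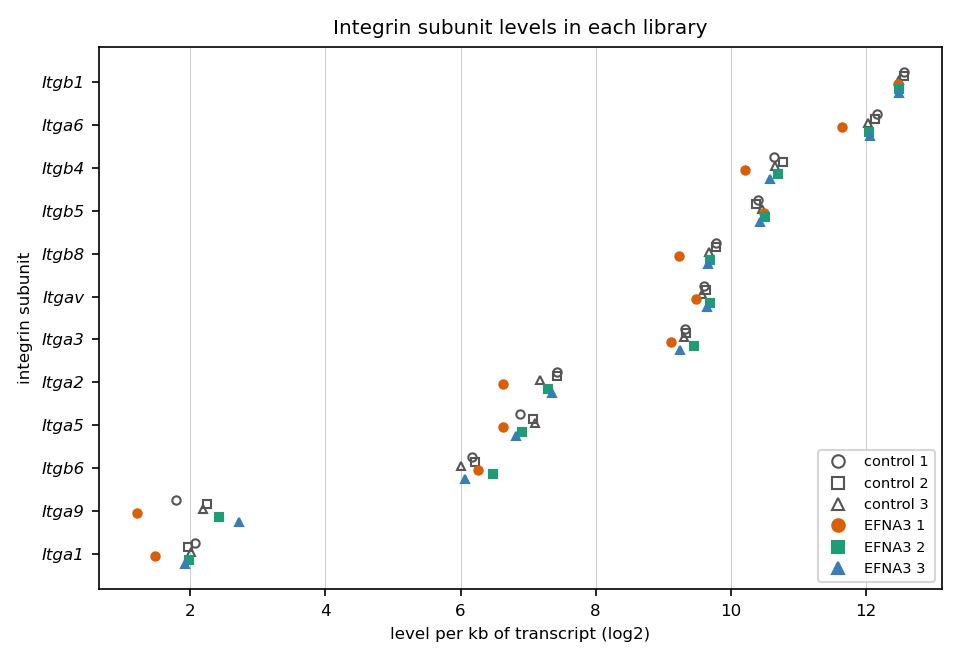
Level of each of the 12 integrin subunits per kb of transcript (log2, horizontal axis) in the 3 control libraries (open grey symbols) and the 3 EFNA3 libraries (filled symbols), ordered by the control mean. Itgb1 and Itga6 lie at the right in every library, Itga9 and Itga1 at the left, and the orange points of EFNA3 replicate 1 lie left of the others for Itga6, Itgb4, Itgb8 and Itga2.

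Summing linear levels per kb over the 14 alpha subunits of the table, Itga6 made up 65.1% ± 0.8 of alpha-chain transcript in controls (SD, n = 3). Itgav made up 11.5% ± 0.3 and Itga3 9.48% ± 0.29. Itga8, which lies outside the 37 genes, made up 6.87% ± 0.45, more than Itga2 at 2.41% ± 0.15. Of the 8 beta subunits, Itgb1 accounted for 54.0% ± 0.7, Itgb4 for 15.0% ± 0.7, Itgb5 for 12.4% ± 0.6 and Itgb8 for 7.80% ± 0.22. Itgb3, also outside the 37 genes, accounted for 10.0% ± 0.5. With EFNA3 the Itga6 share was 61.9%, 63.6% and 65.2% in replicates 1, 2 and 3, so that replicates 1 and 2 lay below the lowest control at 64.3% and replicate 3 lay among the controls. Itgav took 13.8%, 12.5% and 12.2% with EFNA3, all above the highest control at 11.8%. A share also rises where other chains fall. In EFNA3 replicate 1 the level of Itgav itself, 12.30 in log2 as deposited, lay below the lowest control at 12.40. The group difference of that level was 0.00, or 0.07 without that library. The Itgb4 share was 11.8% in EFNA3 replicate 1 and 15.2% and 14.3% in the others, against 14.4% to 15.7% in controls. No test was run on these shares, and they have no counterpart over all genes. The lack of overlap for Itgav is therefore not read as a result about it.

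**Figure D2:**
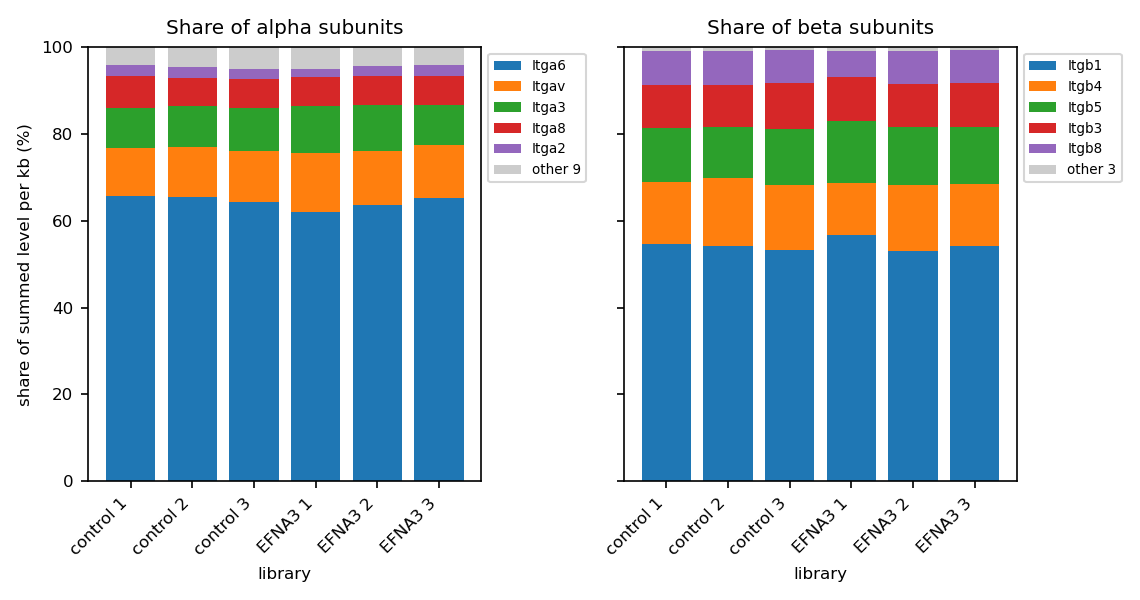
Share of each alpha subunit (left) and beta subunit (right) in the summed linear level per kb of its kind (%, bars start at 0), 1 bar per library; subunits under 2% in controls are pooled in grey. Itga6 makes up 61.9% to 65.7% of alpha chains and Itgb1 53.0% to 56.8% of beta chains in all 6 libraries.

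Only certain chains pair, and the level of the scarcer chain was used to order 11 known pairs among the 12 subunits. RNA levels do not show which proteins assembled. A shared chain counts in full for each of its pairs, so the order does not show how Itga6 divides between Itgb1 and Itgb4. Itga6 with Itgb1 came first at 12.11 ± 0.07 in controls, where Itga6 was the scarcer chain by 0.44 ± 0.04. Itga6 with Itgb4 was second at 10.69 ± 0.08, where Itgb4 was the scarcer by 1.42 ± 0.09. Itgav limited its pairs with Itgb5, Itgb8 and Itgb1 alike, at 9.60 ± 0.02, so these cannot be ordered this way. Itga3 with Itgb1 stood at 9.32 ± 0.01, Itga2 with Itgb1 at 7.35 ± 0.14, Itga5 with Itgb1 at 7.02 ± 0.12 and Itgav with Itgb6 at 6.13 ± 0.11. Among the 12 subunits the likely leading pairs by transcript level are therefore the laminin receptors of Itga6, then Itgav with Itgb5, Itgb8 or Itgb1, then Itga3 with Itgb1. Pairs with a chain outside the 12 were not ordered; of these chains Itgb3, a partner of Itgav, stood at 10.11 per kb, above Itgav, and Itga8, a partner of Itgb1, at 8.86, above Itga2. With EFNA3 the first pair stood at 11.65, 12.04 and 12.06 in replicates 1, 2 and 3, against 12.16, 12.13 and 12.03 in controls. The second stood at 10.21, 10.70 and 10.58, against 10.64, 10.77 and 10.65. In both pairs the groups overlapped and EFNA3 replicate 1 was the lowest library.

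Against this background the EFNA3 libraries differed little from the controls. Of the 37 genes, 29 had a lower group mean with EFNA3 and 8 a higher one, and the median log2 difference was -0.13, against 0.00 over all 16394 genes tested. Of all genes tested, 49.2% had a lower mean. No listed gene passed the limma test at an adjusted p under 0.05, and 0 of all genes did (0.00%); the smallest adjusted p was 0.55. At an unadjusted p under 0.05, 2 of 37 were lower, the tensin gene Tns1 and the scaffold gene Git2, against 2.86% of all genes, and 0 were higher, against 3.87%. EFNA3 and control values did not overlap for 5 genes, all lower (Tln2, Ilk, Fermt2, Git2 and Kank1), against 7.45% of all genes lower and 8.53% higher. Without EFNA3 replicate 1 the median difference was -0.02, with 25 genes lower and 12 higher. Unadjusted p was then under 0.05 for 0 of the 37, where 2.20% of all genes were lower and 2.41% higher. The same 5 genes had no overlap on the lower side without that library, against 9.20% of all genes, and Itga9 and Itgav had none on the higher side, against 10.4%.

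Other single libraries also moved these counts. The unadjusted count of lower genes was 1 without control replicate 1 (Itga5), 1 without control replicate 2 (Tns1) and 0 without control replicate 3. It was 5 without EFNA3 replicate 2 (Itga5, Itgb4, Itgb8, Tns1 and Tns4) and 3 without EFNA3 replicate 3 (Tln2, Vcl and Tns1). The count of higher genes was 0 each time. Over all 16394 genes, in either direction, the counts were 568, 512 and 740 without control replicates 1, 2 and 3. They were 1801 and 2478 without EFNA3 replicates 2 and 3, so many genes outside the list moved as well. The number of genes lying below all controls was 6, 8 and 14 if control replicate 1, 2 or 3 was left out. It was 16 and 5 if EFNA3 replicate 2 or 3 was. Above all controls lay 2 genes without control replicate 3 (Itgb5 and Bcar1), 3 without EFNA3 replicate 3 (Itgb5, Itgb6 and Src) and 0 in the other 3 of these settings. Groups of fewer libraries overlap less often for any gene. The share over all genes was not computed here, so these counts are not read as a result about the 37 genes. Median differences were -0.20 and -0.18 with EFNA3 replicates 2 and 3 left out in turn, and between -0.12 and -0.10 with each control left out in turn.

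The difference lay mostly in EFNA3 replicate 1. There, 31 of the 37 genes stood below all 3 controls, where 37.6% of all genes tested did so. In EFNA3 replicate 2 this held for 5 genes (24.6% of all tested) and in EFNA3 replicate 3 for 17 (22.9%). The median difference from the control mean was -0.31, 0.01 and -0.05 in EFNA3 replicates 1, 2 and 3. Within the groups, the median SD over the 37 genes was 0.06 in controls and 0.21 with EFNA3, against 0.10 and 0.17 over all genes tested.

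**Figure D3:**
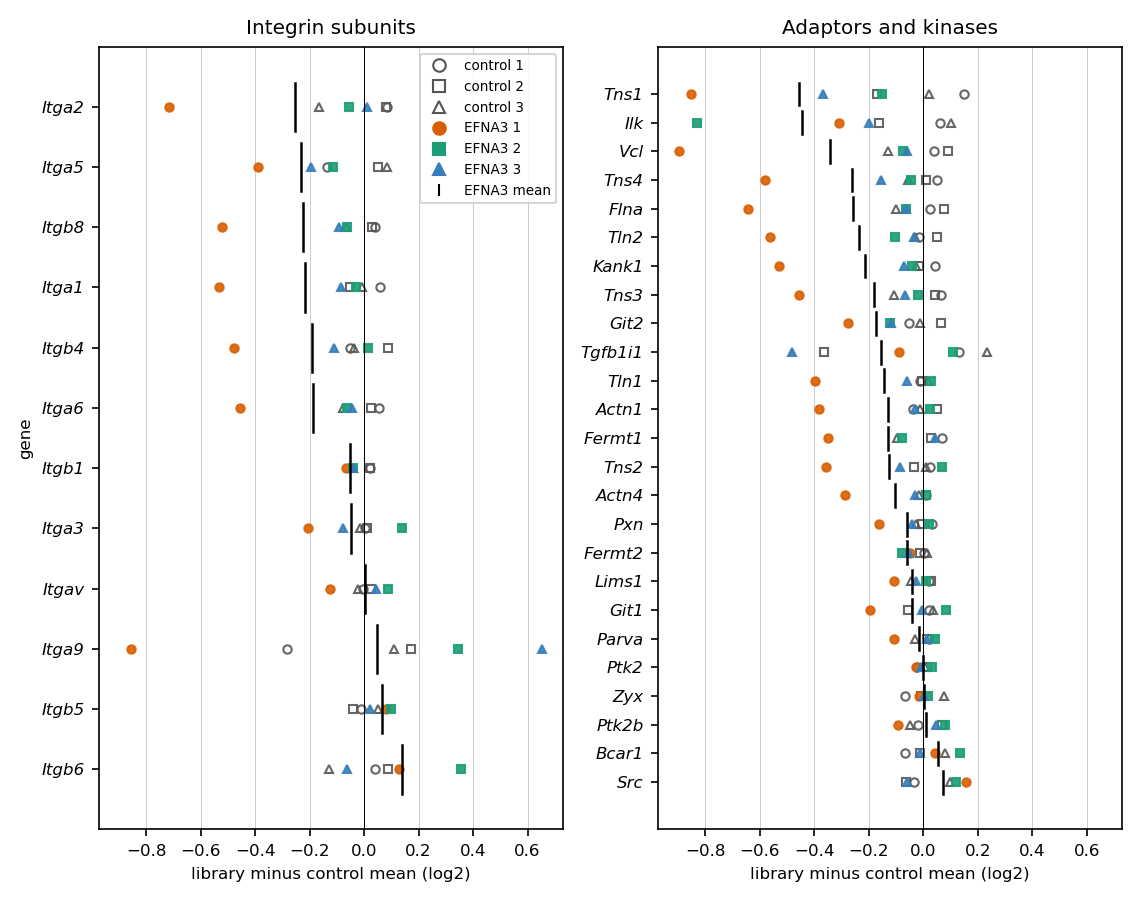
Value of each library minus the control mean (log2, horizontal axis) for the 12 integrin subunits (left) and the 25 adaptors and kinases (right), with controls as open grey symbols, EFNA3 libraries as filled symbols and a black bar at the EFNA3 mean. The orange points of EFNA3 replicate 1 lie left of the controls for 31 of 37 genes, while the points of EFNA3 replicate 2 lie around 0 except for Ilk, Itga9 and Itgb6.

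Among the alpha chains, in log2 values as deposited and with libraries in the order of their replicate numbers, Itga6 stood at 14.27, 14.24 and 14.13 in controls and at 13.76, 14.15 and 14.17 with EFNA3. EFNA3 replicate 1 was low, and the other EFNA3 libraries lay among the controls. The difference was -0.19 (SE 0.11, 95% interval -0.44 to 0.07), or -0.05 without EFNA3 replicate 1 (interval -0.17 to 0.06). Itga3 read 11.61, 11.62 and 11.59 in controls and 11.40, 11.74 and 11.53 with EFNA3, values that lay on both sides of the controls. Its difference was -0.05 (SE 0.09), or 0.03 without EFNA3 replicate 1. Itgav read 12.42, 12.45 and 12.40 in controls and 12.30, 12.51 and 12.47 with EFNA3. EFNA3 replicates 2 and 3 lay above all controls and replicate 1 below them, and the difference was 0.00 (SE 0.07), or 0.07 without replicate 1.

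The collagen receptor chain Itga2 had the most negative difference of the integrins, -0.25 (SE 0.18), from 10.26, 10.26 and 10.01 in controls and 9.46, 10.12 and 10.19 with EFNA3. Without EFNA3 replicate 1, which alone lay outside the controls, it was -0.02. Itga5, which pairs only with Itgb1, had 9.02, 9.21 and 9.24 in controls and 8.77, 9.04 and 8.96 with EFNA3. Here replicates 1 and 3 lay below all controls and replicate 2 above the lowest, and the difference was -0.23 (SE 0.11, interval -0.47 to 0.01), or -0.15 without replicate 1. This was the integrin with the most negative difference when EFNA3 replicate 1 was left out (interval -0.36 to 0.05). Itga1 and Itga9 had the lowest levels of the 12. Itga1 read 5.53, 5.42 and 5.46 in controls and 4.94, 5.44 and 5.38 with EFNA3, with replicates 1 and 3 below all controls and a difference of -0.22 (SE 0.22), or -0.06 without replicate 1. Itga9 read 4.60, 5.06 and 4.99 in controls and 4.03, 5.23 and 5.53 with EFNA3, the widest spread of any integrin, and its difference was 0.05 (SE 0.39) with replicate 1 and 0.50 (interval -0.14 to 1.14) without it.

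Of the beta chains, Itgb1 varied least among the EFNA3 libraries, at 14.49, 14.49 and 14.43 in controls and 14.41, 14.43 and 14.43 with EFNA3. The EFNA3 values equalled or lay below the lowest control, and the difference was -0.05 (SE 0.07, interval -0.20 to 0.10), or -0.04 without EFNA3 replicate 1. Itgb4 read 13.27, 13.41 and 13.28 in controls and 12.84, 13.33 and 13.21 with EFNA3, where replicates 1 and 3 were below all controls and replicate 2 was among them. Its difference of -0.19 (SE 0.12) was -0.05 without EFNA3 replicate 1 (interval -0.17 to 0.08). Itgb8 read 12.86, 12.85 and 12.75 in controls and 12.30, 12.76 and 12.73 with EFNA3, a difference of -0.22 (SE 0.12) that was -0.08 without replicate 1. Replicates 1 and 3 lay below the lowest control.

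Itgb5 and Itgb6, both partners of Itgav, were the beta chains with higher means. Itgb5 read 12.12, 12.09 and 12.18 in controls and 12.21, 12.23 and 12.15 with EFNA3, so replicates 1 and 2 lay above all controls and replicate 3 among them. Its difference was 0.07 (SE 0.06), or 0.06 without EFNA3 replicate 1. Itgb6 read 8.44, 8.48 and 8.27 in controls and 8.53, 8.75 and 8.34 with EFNA3, overlapping groups with a difference of 0.14 (SE 0.13), or 0.15 without replicate 1. Over the 12 subunits, 8 were lower and 4 higher, with a median of -0.12, and no group of values stood apart from the controls. Without EFNA3 replicate 1, 7 were lower and 5 higher, with a median of -0.03. Itga9 and Itgav then lay above all controls, as 10.4% of all genes did. With and without that library, limma adjusted p lay above the threshold for each subunit.

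Of the adaptors and kinases, 21 were lower and 4 higher, with a median difference of -0.13, or -0.02 without EFNA3 replicate 1. The most abundant per kb was Actn4, an actin crosslinker, at 12.61 ± 0.01 in controls (log2 per kb, SD, n = 3). It was followed by the crosslinkers Flna at 11.45 ± 0.09 and Actn1 at 11.28 ± 0.05 and the tensin Tns3 at 10.70 ± 0.09. The ILK partner Parva stood at 10.21 ± 0.03, paxillin (Pxn) at 9.97 ± 0.03, Lims1, which encodes the ILK partner PINCH1, at 9.79 ± 0.04 and talin 1 (Tln1), the main link from beta tails to actin, at 9.63 ± 0.02. Actn4 thus stood beside Itgb1, at 12.54 per kb.

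Among the actin crosslinkers, Actn4 read 14.57, 14.57 and 14.55 (log2 as deposited) in controls and 14.28, 14.57 and 14.53 with EFNA3. Actn1 read 13.15, 13.24 and 13.17 in controls and 12.80, 13.21 and 13.15 with EFNA3. For both, EFNA3 replicate 1 was low and replicates 2 and 3 lay at or close to the controls; the differences of -0.10 (SE 0.09) and -0.13 (SE 0.11) became -0.01 and -0.00 without replicate 1. Flna read 14.56, 14.61 and 14.43 in controls and 13.89, 14.47 and 14.47 with EFNA3, where only replicate 1 left the control range. Its difference was -0.26 (SE 0.15), or -0.07 without that library.

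Talins were low in EFNA3 replicate 1 as well. Tln1 read 12.69, 12.70 and 12.72 in controls and 12.30, 12.73 and 12.64 with EFNA3, a difference of -0.14 (SE 0.11), or -0.02 without replicate 1. Tln2, the second talin, read 12.10, 12.16 and 12.08 in controls and 11.55, 12.01 and 12.08 with EFNA3. All EFNA3 values of Tln2 lay below all controls, though replicate 3 equals the lowest control after rounding, and the difference was -0.24 (SE 0.13, interval -0.52 to 0.05), or -0.07 without replicate 1. Vinculin (Vcl), which binds talin under tension, had the lowest single deviation, with 11.33, 11.38 and 11.16 in controls and 10.39, 11.21 and 11.23 with EFNA3. Its difference of -0.34 (SE 0.20) was -0.07 without replicate 1 (interval -0.21 to 0.08). In the annotation 39.7% of its transcript lies under exons of Ap3m1 on the opposite strand, and the strand setting of the counting is not known here, so its values are uncertain to that extent. Smaller overlaps on the opposite strand touch Actn1 (12.1%), Itgb4 (8.65%), Actn4 (8.15%), Zyx (5.02%) and Tln1 (1.08%), and exons of a gene on the same strand cover 6.25% of Itga1.

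Tensins bind beta tails and are found at mature adhesions. Tns1 had the most negative group difference of the 37 genes, reading 7.93, 7.61 and 7.80 in controls and 6.93, 7.63 and 7.41 with EFNA3. Replicates 1 and 3 were below all controls and replicate 2 just above the lowest, a difference of -0.46 (SE 0.19; limma adjusted p = 0.55) that was -0.26 without EFNA3 replicate 1 (interval -0.57 to 0.05). Tns4 read 11.86, 11.82 and 11.76 in controls and 11.23, 11.77 and 11.66 with EFNA3, at -0.26 (SE 0.13), or -0.10 without replicate 1. Tns3 read 13.66, 13.64 and 13.49 in controls and 13.14, 13.58 and 13.53 with EFNA3, at -0.18 (SE 0.12), or -0.04. The fourth tensin, Tns2, differed by -0.13 (SE 0.11), or -0.01. All 4 tensins had negative differences with and without replicate 1, but Tns2 (0.01) and Tns3 (0.01) were above 0 without it once values were corrected for length and GC. The interval of Tns1 alone excluded 0, only with replicate 1.

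The ILK complex ties beta tails to actin through Ilk, Parva and Lims1. Parva read 12.39, 12.38 and 12.33 in controls and 12.26, 12.41 and 12.38 with EFNA3, and Lims1 read 11.92, 11.93 and 11.85 in controls and 11.79, 11.91 and 11.87 with EFNA3. Both varied little, at -0.02 (SE 0.07) and -0.04 (SE 0.07), or 0.03 and -0.01 without replicate 1. Ilk itself stood far lower than its partners, at 5.04, 4.81 and 5.08 in controls and 4.67, 4.15 and 4.77 with EFNA3. Per kb, Ilk stood at 4.13 ± 0.14 in controls, against 10.21 for Parva. In the annotation 100% of the Ilk transcript of 1795 nt lies under exons of genes on the opposite strand, chiefly Taf10. Its level and its difference of -0.45 (SE 0.27), or -0.52 without replicate 1, are therefore uncertain, although all EFNA3 values lay below all controls; EFNA3 replicate 2 was the lowest.

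Kindlins also bind the beta tail: Fermt1, the epithelial form, differed by -0.13 (SE 0.10), or -0.02 without replicate 1. Fermt2 read 11.05, 11.04 and 11.06 in controls and 11.00, 10.97 and 11.00 with EFNA3. These groups did not overlap, yet the difference was only -0.06 (SE 0.06), or -0.07 without replicate 1. The scaffold gene Git2, whose protein binds paxillin, read 10.81, 10.93 and 10.85 in controls and 10.59, 10.74 and 10.74 with EFNA3, with no overlap and a difference of -0.17 (SE 0.08; limma adjusted p = 0.55), or -0.12 (interval -0.25 to 0.01) without replicate 1. Kank1, whose protein binds talin at the rim of adhesions, read 9.78, 9.73 and 9.71 in controls and 9.21, 9.70 and 9.67 with EFNA3. Its difference was -0.21 (SE 0.13), or -0.06 without replicate 1, and EFNA3 replicate 2 lay just below the lowest control.

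The signalling members and paxillin differed little. Pxn read 11.89, 11.86 and 11.83 in controls and 11.70, 11.88 and 11.82 with EFNA3, at -0.06 (SE 0.07), or -0.01 without EFNA3 replicate 1. Focal adhesion kinase (Ptk2) differed by -0.00 (SE 0.06, interval -0.15 to 0.15), or 0.01 without that library, and its relative Ptk2b by 0.01 (SE 0.08), or 0.06. The docking protein Bcar1 differed by 0.06 (SE 0.07), or 0.06, Src by 0.07 (SE 0.08), or 0.03, and zyxin (Zyx) by 0.00 (SE 0.07), or 0.01. Src was the gene with the highest value in EFNA3 replicate 1 relative to the control mean. Git1 stood at -0.04 (SE 0.08), or 0.04, and Tgfb1i1, a paxillin relative of low level here, at -0.16 (SE 0.22), or -0.19. These, with Tns2, Fermt1 and Fermt2, are the 10 adaptors and kinases not given by library under the rule for named genes, apart from Fermt2. Without EFNA3 replicate 1 their differences ran from -0.19 to 0.06.

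How far EFNA3 replicate 1 lay below the controls went with transcript length. The 37 transcripts are long, with a median of 4755 nt against 2801 nt over genes tested. For the 17 under 4500 nt, the median difference of EFNA3 replicate 1 from the control mean was -0.11, for the 10 of 4500 to 7000 nt it was -0.35, and for the 10 over 7000 nt it was -0.55. In EFNA3 replicates 2 and 3 the medians of these classes lay between -0.08 and 0.02. Across the 37 genes, which share their libraries, Pearson's r between the difference of EFNA3 replicate 1 and log2 length was -0.62 (Spearman rho -0.70). For EFNA3 replicate 2 the values were 0.19 (rho -0.26) and for replicate 3 they were 0.07 (rho -0.21), so that r and rho differed in sign. Over all 15972 tested genes with a length, r was -0.41 (rho -0.53) for EFNA3 replicate 1, -0.14 (rho -0.26) for replicate 2 and -0.12 (rho -0.18) for replicate 3.

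With a correction of every library for transcript length and GC share, the median difference of the 37 genes was -0.03, against 0.02 over all genes, and 25 of them lay below 0. With the correction and without EFNA3 replicate 1 it was 0.01, with 16 below 0. Itga5 and Tns1 stood at -0.19 and -0.27 with the correction, and at -0.14 and -0.20 without EFNA3 replicate 1 as well. Itgav stood at 0.16 with the correction and at 0.11 without EFNA3 replicate 1 as well, and was the 1 gene of the 37 with an unadjusted p under 0.05 in either corrected fit. Of all 15972 genes in these fits, 1226 had such a p with the correction and 692 without EFNA3 replicate 1 as well. Having 1 such gene among 37 is therefore not read as a result about Itgav. At an adjusted p under 0.05 limma called 0 genes in both. For Itga6 and Itgb4 the corrected values were -0.11 and -0.08, and -0.03 and -0.01 without that library.

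**Figure D4:**
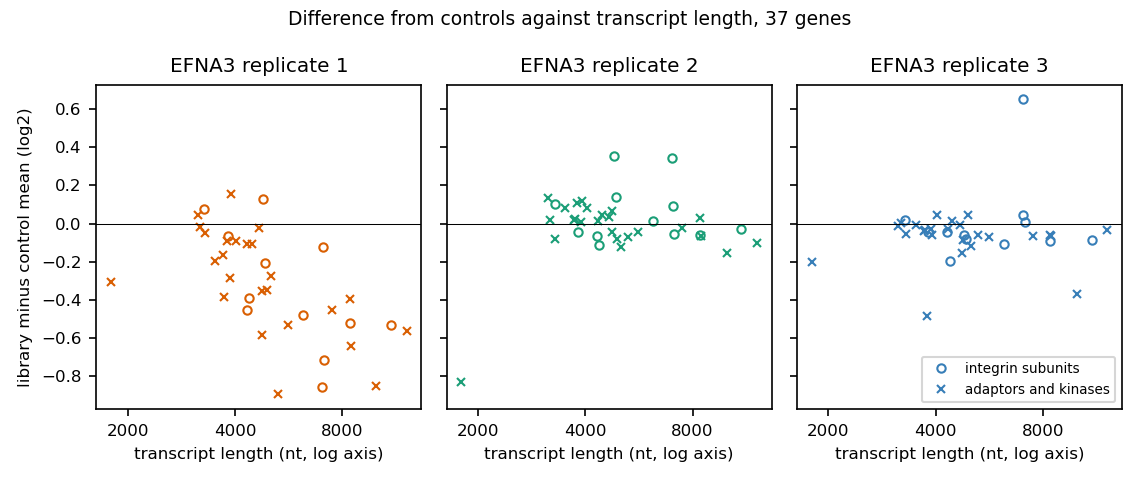
Difference of each EFNA3 library from the control mean (log2, vertical axis) against transcript length (nt, log axis) for the 37 genes, with integrin subunits as circles and adaptors and kinases as crosses. Points fall from left to right for EFNA3 replicate 1 (Pearson's r = -0.62, Spearman rho -0.70), while for replicates 2 and 3 r is 0.19 and 0.07 and rho is -0.26 and -0.21.

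Many adhesion genes are known targets of serum response factor (SRF), which responds to actin state and binds the CArG box (CC, 6 letters of A or T, GG), and of TEAD factors, whose core letters are GGAATG. RefSeq promoters of build GRCm38.p6, windows of 300 bases that end shortly after a gene start, were searched on both strands; 28 of the 37 genes had one, including 10 of the 12 integrins. A CArG box, present in 1.63% of all 32851 promoters, was found for Vcl, Itgb6 and Fermt2. GGAATG, present in 14.7% of promoters, was found for Vcl, Itgb1, Actn4 and Flna. The boxes begin 227, 50 and 204 bases before the start in Vcl, Itgb6 and Fermt2. A match describes letters only. The CArG boxes of the 3 genes and the GGAATG of Itgb1, the highest integrin, are shown with the motif in capitals, on the strand of each gene:
Vcl, chr14:20929148-20929205, plus strand: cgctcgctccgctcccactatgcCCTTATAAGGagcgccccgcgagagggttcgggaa
Itgb6, chr2:60673709-60673768, minus strand: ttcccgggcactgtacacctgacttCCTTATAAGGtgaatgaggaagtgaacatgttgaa
Fermt2, chr14:45530235-45530294, minus strand: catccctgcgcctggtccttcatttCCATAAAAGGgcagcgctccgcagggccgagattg
Itgb1, chr8:128685622-128685677, plus strand: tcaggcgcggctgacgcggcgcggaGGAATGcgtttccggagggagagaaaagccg
The CArG boxes of Vcl and Itgb6 have the same 10 letters. Without EFNA3 replicate 1 the differences were -0.07 for Vcl, 0.15 for Itgb6 and -0.07 for Fermt2. Each interval included 0, so these values do not show whether the 3 genes moved together or apart. A link between the motifs and the differences was not tested.

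Outside the 37 genes, 10 of 14 further integrin subunits had a row and 7 were tested, of which 5 were lower, with a median of -0.19; without EFNA3 replicate 1 all 7 were lower, with a median of -0.07. Itga7, another laminin receptor chain, lay between 7.85 and 8.04 in controls and between 7.56 and 7.73 with EFNA3. Its groups did not overlap, as for 7.45% of all genes on the lower side. The difference of -0.30 (SE 0.11) was -0.32 without EFNA3 replicate 1, with limma adjusted p = 0.55 over all genes. Itga7 was the 1 of the 7 tested subunits with an unadjusted p under 0.05 with and without that library. Over all genes, 2.86% with that library and 2.20% without it were lower at that p. Itgb3, which pairs with Itgav, differed by -0.07 (SE 0.07), or -0.04 without that library, and Itga8 by -0.19 (SE 0.10), or -0.09. Differences were -0.23 (SE 0.15), or -0.07, for Itga11 and -0.21 (SE 0.20), or -0.18, for the leukocyte chain Itgb2.

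Of 64 further adhesion adaptors and kinases 58 were tested, 22 higher and 36 lower, with a median of -0.06, or -0.01 without EFNA3 replicate 1. Lpp, a zyxin relative, differed by -0.34 (SE 0.14), or -0.15 without that library. It was the 1 gene of the 58 with an unadjusted p under 0.05 in each case. At that p, 2.86% of all genes were lower, or 2.20% without that library, and the limma adjusted p of Lpp was 0.55. Dock1 differed by -0.22 (SE 0.11), or -0.09 without that library, and Cib1 by 0.25 (SE 0.12), or 0.13. The most abundant per kb were Csrp1 at 11.66 and Rap1b at 10.99 in controls, with differences of 0.14 (SE 0.10) and 0.13 (SE 0.09), or 0.03 and 0.04 without EFNA3 replicate 1.

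Hemidesmosome genes, all 7 tested, were 4 higher and 3 lower, with a median of 0.03, or 0.01 without EFNA3 replicate 1. Col17a1, a transmembrane partner of Itga6 and Itgb4, differed by -0.18 (SE 0.11), and the linker Dst by -0.31 (SE 0.19); without EFNA3 replicate 1 these were -0.05 and -0.04. The tetraspanin Cd151, which binds laminin-receptor integrins, differed by 0.16 (SE 0.08), or 0.09 without that library. For the basal keratins Krt14 and Krt5 the differences were 0.12 (SE 0.09) and 0.03 (SE 0.07), or 0.10 and -0.01.

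Of 32 integrin ligands and related matrix genes 29 were tested, 9 higher and 20 lower, with a median of -0.15, or -0.00 without EFNA3 replicate 1. Ccn2, a matricellular protein that binds integrins, was the 1 ligand of 29 with an unadjusted p under 0.05. It lay on the higher side, as 3.87% of all genes did at that p. It read 12.19, 12.30 and 12.34 in controls and 12.75, 12.39 and 12.51 with EFNA3. The groups did not overlap, as for 8.53% of all genes on the higher side. Ccn2 differed by 0.27 (SE 0.10, limma adjusted p = 0.55), or 0.17 without EFNA3 replicate 1. Its relative Ccn1 differed by 0.22 (SE 0.10), or 0.14. The laminin chain Lama5, a ligand of Itga6 and Itga3 receptors, differed by -0.26 (SE 0.12), or -0.11, and Thbs1 by -0.25 (SE 0.12), or -0.10. Mfge8 and Spp1, ligands of Itgav receptors, were the most abundant ligands, at 13.35 and 13.15 per kb in controls. Their differences were 0.01 (SE 0.09) and 0.01 (SE 0.10), or -0.04 and -0.10 without EFNA3 replicate 1.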

How the data were processed

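RNA was sequenced in 3 control and 3 EFNA3 libraries, grouped by title. No label says whether replicates are separate mice or cultures, and their spread may be technical; p-values measure that spread only. Per the labels' protocols, an mRNA kit that keeps strand was used. Trim Galore, Subread, featureCounts and build mm39 are named in the submitters' processing notes; versions, annotation, strand setting and normalization steps: not given in the sources used here. Log2 values were deposited by the authors (the base is inferred), from -0.79 to 18.1, and the 6 sorted columns differ by at most 0.00302. Depth is unknown.

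Genes reaching 10 on the linear scale (log2 3.32) in 3 or more libraries were tested (16394), and all 37 genes passed. The groups were compared with limma 3.58.1 in R 4.3.3 (mean-variance trend, no block, Benjamini-Hochberg over all genes at 0.05, 95% intervals); the fit was checked on simulated data. Lengths and GC shares come from the longest protein-coding transcript in GENCODE M21, an earlier build, for 97.4% of tested genes; the correction used splines with 5 degrees of freedom. Values by library are given for all integrin subunits, the 8 adaptors and kinases highest per kb and the 8 with the smallest p. From other lists up to 4 genes with the smallest p and 2 with the highest level are named; 1 such gene is not reported here. The genes, lists and tests were chosen with earlier results of these data known. Alternatives covered the filter, pseudocount, variance model, weights, scaling, blocks, length and each library.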

Additional observations from a re-analysis of the deposited data

How the results depend on the processing

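No setting gave a call for any of the 37 genes. Over all genes, limma called 0 under every setting but the replicate block by description numbers, which called 71, none of the 37. Only description numbers 1 and 7 occur in both groups. Control replicate 2 (number 3) and EFNA3 replicate 2 (number 6) therefore add nothing to the differences of that fit, which rest on replicates 1 and 3 of each group. At an unadjusted p under 0.05 there were 1104 genes in the fit as reported, and from 512 (without control replicate 2) to 2478 (without EFNA3 replicate 3) over the other settings. By titles, deviations from the group means had correlations of -0.11, 0.03 and -0.32 for pairs 1, 2 and 3. Within a group of 3 such deviations sum to 0 and so depend on each other. They cannot show whether same-numbered libraries share a source. No label states a pairing, so the numbers are not taken to pair the samples. Under the replicate block by title numbers 0 genes were called and the medians of integrins and of adaptors were -0.12 and -0.13, as without it. The block by descriptions, which rests on replicates 1 and 3 of each group, gave medians of -0.19 and -0.17. Under it Itga9 stood at -0.016, Itgav at -0.027 and Zyx at -0.012.

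Library weights moved the median difference of integrins from -0.12 to -0.049 and that of adaptors from -0.13 to -0.024, with Itga3 at 0.049, Ptk2 at 0.017, Parva at 0.023 and Git1 at 0.038. The length and GC correction gave medians of -0.0066 and -0.045, and turned the sign of Itga3 (0.018), Tln1 (0.019), Ptk2 (0.092), Zyx (-0.011), Parva (0.066) and Lims1 (0.033). With that correction and without EFNA3 replicate 1 the medians were 0.015 and 0.0095, and signs turned for Itga1 (0.0044), Itga2 (0.025), Itga3 (0.055), Tln1 (0.038), Ptk2 (0.044), Tns2 (0.014), Tns3 (0.012), Parva (0.058), Lims1 (0.011), Actn1 (0.0095), Actn4 (0.0011), Fermt1 (0.018) and Git1 (0.042).

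Leaving out each library in turn, the integrin median ran from -0.24 to -0.033 and the adaptor median from -0.20 to -0.017. Signs turned for 9 genes. The upper ends, without EFNA3 replicate 1, and the lower ends, without EFNA3 replicate 2, were 0.029 and -0.14 for Itga3, 0.067 and -0.040 for Itgav, 0.012 and -0.017 for Ptk2, 0.062 and -0.023 for Ptk2b, 0.028 and -0.048 for Parva and 0.038 and -0.10 for Git1. Itga9 ran from -0.26 without EFNA3 replicate 3 to 0.50 without EFNA3 replicate 1. Zyx ran from -0.033 without control replicate 1 to 0.038 without control replicate 3, and Tgfb1i1 from -0.34 without control replicate 2 to 0.0089 without EFNA3 replicate 3. The cause was not tested.

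In controls Itga6 exceeded the next alpha chain by 2.50 per kb of transcript, 1.79 as deposited and 1.73 per kb of coding sequence. Itgb1 exceeded the next beta chain by 1.85, 1.15 and 1.60. The filters, pseudocount, trend and centring turned no sign and gave no call; with a minimum of 50, Itga1, Itga9 and Ilk were not tested. Depth is unknown, so counting error could not be given.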
